A study of Homo sapiens with 14 samples.

Results

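The nucleotides described here form the conserved 5′ part of domain I of human 28S ribosomal RNA, from nt 7 to the border with expansion segment ES7L. They were chosen by position alone, as the rows of this range with a score for all 3 reagents, and number 429 of the 5034 scored nucleotides of 28S (8.52%) and of 6867 in 18S and 28S together. No row in the range lacked a score. The borders follow a fixed, approximate numbering, and since no rRNA sequence was used here, the placement in domain I could not be checked on bases or helices. RNA was acylated in living HEK293 cells, a line from human embryonic kidney that carries adenovirus 5 DNA in every group, and acylated sites were read as stops of reverse transcriptase. Ribosomal RNA came from gel-purified 18S and 28S bands of cells kept for 10 min in 100 mM acetylimidazole (AcIm), 200 mM AcIN3, 100 mM NAIN3 (NAI-N3, an azide-bearing nicotinic acid imidazolide) or 10% DMSO, with 2 replicates in each of these 4 groups. The other 6 of 14 samples held polyadenylated RNA and were not analysed here. The values are the authors' mean R-scores for AcIm, AcIN3 and NAIN3, a score from 0 to 1 per nucleotide. No replicate values, DMSO profile or read counts were used, so depth is unknown and no difference below could be tested against the spread between replicates. Intervals given with shares are exact Clopper-Pearson 95% intervals over nucleotides, which are not independent and are not replicates.

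Domain I opens the RNA of the large ribosomal subunit. The 5′ end of 28S pairs with the 3′ part of 5.8S rRNA, and a later stretch of domain I pairs with the 5′ part of 5.8S, so that both RNAs build this domain together. Domain I lies on the solvent side of the subunit near the exit of the peptide tunnel, where proteins such as uL24 and uL29 bind. The reagents transfer an acyl group to the 2′-hydroxyl of a ribose that is flexible and within reach, and nucleotides held in helices or covered by protein are generally less acylated than those in loops. AcIm delivers an acetyl group, which is small, whereas NAIN3 delivers an aromatic group. AcIN3 is known here by its name alone.

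The GRCh38.p14 annotation lists 5 RNA28SN genes of 5054 to 5077 nt. The one of the same length as the deposited profile, RNA28SN5, runs from 113348 to 118417 on a contig that is not placed on a chromosome, and the other copies lie on chromosomes 21 and 22. All of them encode structural rRNA with no coding region. Reads of these copies were not told apart, so each score describes the pool of 28S molecules.

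The typical nucleotide of the 5′ core of domain I scored close to that of 28S as a whole. The median R-score was 0.062 with AcIm (quartiles 0.0255 and 0.1525), 0.102 with AcIN3 (0.049 and 0.203) and 0.032 with NAIN3 (0.0125 and 0.1005). Over the other 4605 scored nucleotides of 28S the medians were 0.0655, 0.1005 and 0.033. The neighbouring expansion segment ES7L (876 nt) had medians of 0.0615, 0.0805 and 0.02975, and the core of domain II beyond it (739 nt) had medians of 0.061, 0.1005 and 0.027. The mean percentile rank within 28S was 48.6 for AcIm, 50.8 for AcIN3 and 51.6 for NAIN3. Differences between parts of 28S could not be tested, because each reagent has a single mean profile.

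The share of highly reactive nucleotides was close to the background at the top 10%. Scores above 0.5 were less frequent than in the rest of 28S with each reagent, as they were in the domain II core. Highly reactive nucleotides were taken as the 10% of all scored 28S nucleotides with the highest scores, a class that begins at 0.2395 for NAIN3, 0.3095 for AcIm and 0.369 for AcIN3. The domain I core held 48 of them for AcIm (11.2%, interval 8.37 to 14.6%), 47 for AcIN3 (10.96%, 8.16 to 14.3%) and 47 for NAIN3 (10.96%), against 9.99% in 28S for each reagent. Mean scores above 0.5 were reached at 14 nucleotides with AcIm (3.26%, against 4.76% elsewhere in 28S), at 21 with AcIN3 (4.90% against 5.67%) and at 9 with NAIN3 (2.10% against 3.76%). In the same order, the shares were 2.98%, 4.06% and 2.44% in the domain II core and 6.39%, 6.51% and 4.91% in ES7L. These differences were not tested. A score of 1 occurred at nt 121 in every reagent, at nt 120 with AcIN3 and at nt 134 with NAIN3.

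Scores of 0 with NAIN3 were fewer than in the rest of 28S, a difference that was not tested. NAIN3 was listed at 0 at 22 of the 429 nucleotides (5.13%, 3.24 to 7.66%), against a background of 10.2% over 28S, 16.8% in ES7L and 11.4% in the domain II core. AcIm was at 0 at nt 96 alone (0.233%, background 0.755%), and AcIN3 at nt 195, nt 251, nt 256 and nt 267 (0.932%, background 1.37%). No nucleotide was at 0 in all reagents. The NAIN3 zeros were unevenly spread along the sequence. Between nt 73 and nt 303 there were 20 of them, with 6 in nt 172 to 204 alone, whereas nt 7 to 72 and nt 304 to 402 held none, and the last were nt 420 and nt 421. A score of 0 may be a low signal or an uncovered position, and the files do not tell these apart.

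**Figure D1:**
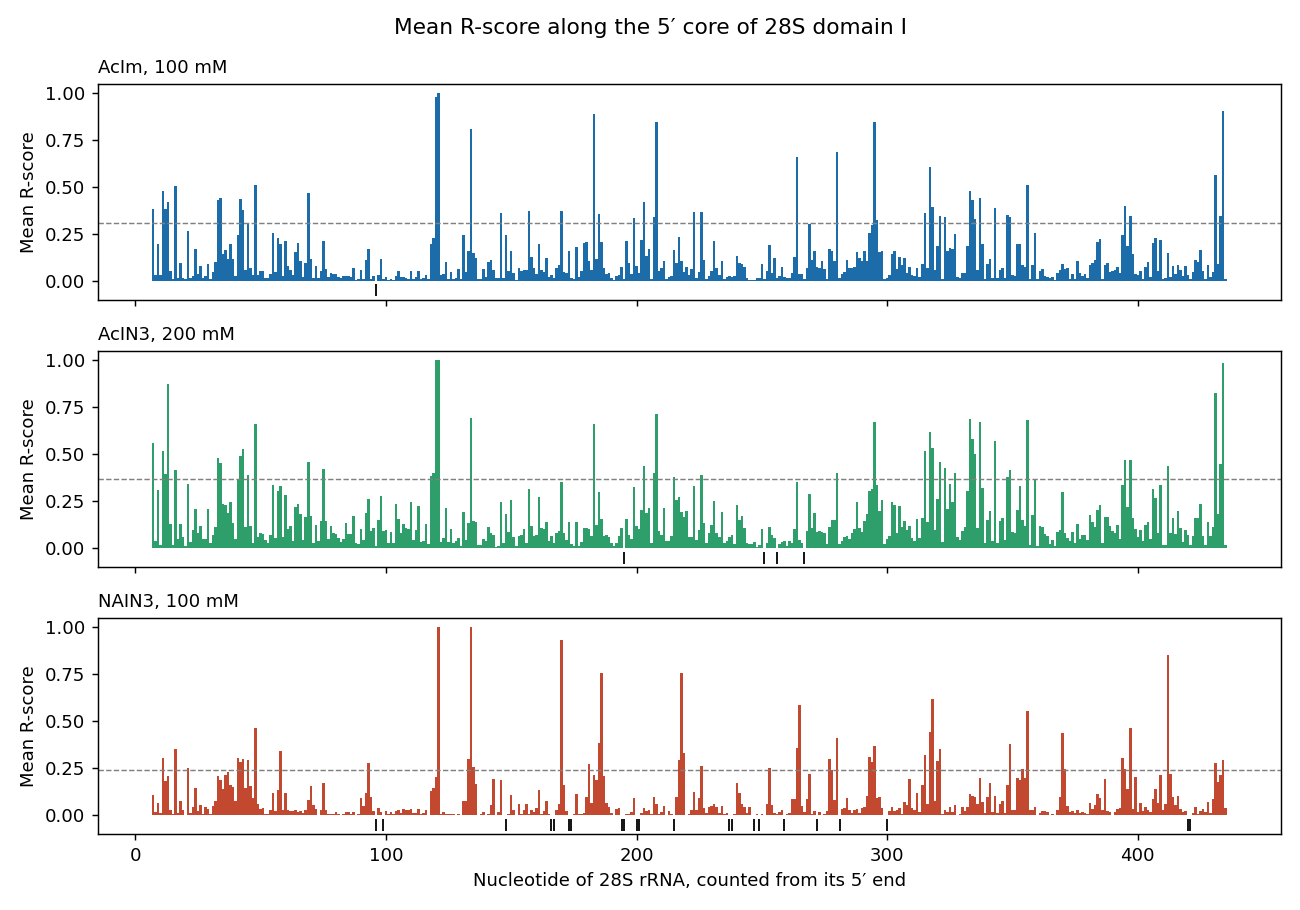
Mean R-score (0 to 1) of each of the 429 nucleotides of the domain I core for AcIm, AcIN3 and NAIN3, 1 bar per nucleotide, by position from the 5′ end of 28S, with the lower limit of the top 10% of 28S as a dashed line (0.3095, 0.369 and 0.2395). Black ticks below 0 mark scores of exactly 0, of which NAIN3 has 22, AcIN3 4 and AcIm 1.

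Along the sequence, nt 304 to 336 ranked high in every profile, and the 5′ end did so most clearly with NAIN3. In 13 consecutive windows of 33 nt, the mean percentile rank was highest at nt 304 to 336 for AcIm (60.9, with 8 top nucleotides) and AcIN3 (65.4, with 9), where NAIN3 stood at 60.5 (5). NAIN3 was highest at nt 40 to 72 (62.0, with 6 top nucleotides) and nt 7 to 39 (61.8, with 3). In these 5′ windows AcIm reached 56.2 and 54.7 and AcIN3 57.7 and 57.5. AcIm ranked higher at nt 271 to 303, at 60.3, where AcIN3 stood at 54.95 and NAIN3 at 52.35. The places depend on the window borders. With windows of 39 nt, NAIN3 was highest at nt 7 to 45 (65.7) and stood at 49.0 at nt 46 to 84. AcIm was then highest at nt 280 to 318 (59.5) and AcIN3 at nt 319 to 357 (64.9). The first window of 33 nt combined high nucleotides with low neighbours. With AcIm, nt 11, nt 12, nt 13 and nt 16 scored 0.4815, 0.383, 0.419 and 0.5065, and nt 10, nt 14, nt 15 and nt 17 scored 0.0335, 0.0555, 0.009 and 0.0185. NAIN3 alternated in the same way at a lower level, with 0.307, 0.1845, 0.2085 and 0.354 at the high positions and 0.014, 0.0305, 0.0075 and 0.0145 at the low ones.

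In windows of 33 nt, both AcIm and NAIN3 were lowest at nt 73 to 105. The mean rank there was 27.4 for AcIm, with 0 of 33 nucleotides in its top 10%, 37.0 for NAIN3, with 1, and 45.8 for AcIN3, with 1. The highest AcIm score in the window was 0.213, at nt 75, where AcIN3 scored 0.4205 and NAIN3 0.175. AcIN3 had its lowest window at nt 238 to 270, with a mean rank of 30.7, no top nucleotide and 3 of its 4 zeros, and AcIm and NAIN3 ranked 37.8 and 45.1 there. With windows of 39 nt, AcIm was lowest at nt 85 to 123 (29.8) and AcIN3 at nt 241 to 279 (34.2). NAIN3 was then lowest at nt 124 to 162 (42.46), close to its 42.9 at nt 85 to 123. The mean rank of AcIN3 minus that of AcIm ran from 18.4 points at nt 73 to 105 to -8.49 points at nt 172 to 204. AcIN3 was used at a higher dose than AcIm, and the replicate spread is not known.

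**Figure D2:**
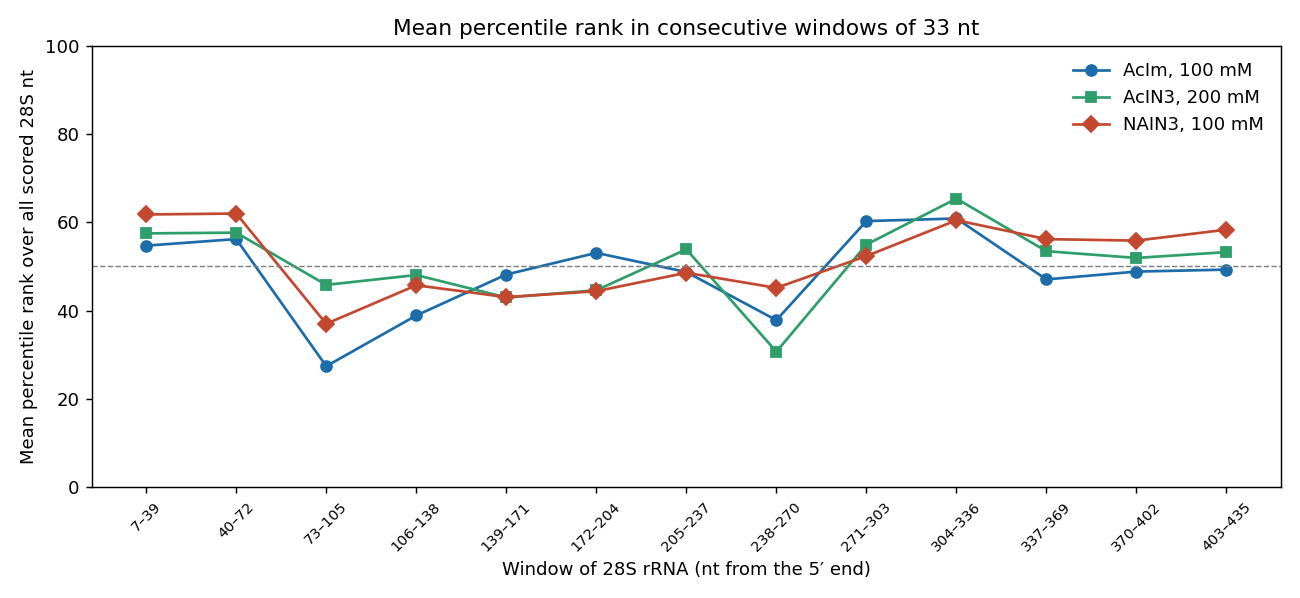
Mean percentile rank of the R-score, taken over all scored 28S nucleotides, in 13 consecutive windows of 33 nt for AcIm, AcIN3 and NAIN3, with rank 50 dashed. AcIm and NAIN3 are lowest at nt 73 to 105 (27.4 and 37.0), AcIN3 at nt 238 to 270 (30.7), and at nt 304 to 336 the ranks are 60.9, 65.4 and 60.5.

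Within the core, runs of top nucleotides were mostly single nucleotides or pairs. Runs were not counted outside the core or for top nucleotides placed at random. Whether this pattern is particular to the core was therefore not tested. The 48 top nucleotides of AcIm formed 36 runs, of which 26 were single nucleotides, 8 were pairs and 2 were longer, nt 11 to 13 and nt 333 to 335. The 47 of AcIN3 formed 34 runs with 25 single nucleotides, and its longest run was nt 118 to 121. The 47 of NAIN3 formed 32 runs with 21 single nucleotides, 7 pairs and 4 triplets, at nt 41 to 43, nt 133 to 135, nt 217 to 219 and nt 293 to 295. None of the NAIN3 triplets coincided with a run of AcIm that was longer than a pair.

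Averaged over 5 neighbouring nucleotides and all reagents, a mean rank of at least 75 held for 5 or more consecutive nucleotides at nt 40 to 44 only. There AcIm scored 0.0255, 0.2475, 0.4355, 0.3755 and 0.059 in order, AcIN3 0.051, 0.3635, 0.491, 0.526 and 0.115, and NAIN3 0.0755, 0.3065, 0.283, 0.302 and 0.1475. Nt 41 to 43 were thus high in each profile, with lower scores at nt 40 and nt 44. A mean rank of at most 25 held for 5 or more consecutive nucleotides at nt 245 to 250 only. Scores there did not exceed 0.092 with AcIm, 0.102 with AcIN3 and 0.0475 with NAIN3.

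Neighbouring nucleotides resembled each other more with NAIN3 than with AcIm or AcIN3. Spearman's rho between a nucleotide and the next in the 3′ direction was 0.44 with NAIN3, 0.21 with AcIm and 0.17 with AcIN3, across 429 nucleotides of the same libraries. In the rest of 28S these values were 0.52, 0.22 and 0.22, so NAIN3 was highest there too. Single values around high NAIN3 scores varied in shape. At nt 133 to 136 NAIN3 scored 0.3025, 1.0, 0.26 and 0.1695, and AcIm had the same shape with 0.1615, 0.809, 0.15 and 0.1245. At nt 293 to 295 both were highest at the last nucleotide, with 0.31, 0.285 and 0.371 for NAIN3 and 0.256, 0.2975 and 0.845 for AcIm. At nt 217 to 219 NAIN3 scored 0.2925, 0.757 and 0.3335, where AcIm scored 0.234, 0.108 and 0.047. At nt 185 to 187, a pair of top nucleotides of NAIN3 and the nucleotide after it, NAIN3 scored 0.387, 0.7575 and 0.2095 and AcIm 0.3565, 0.206 and 0.069. In both of these latter groups AcIm was highest at the first nucleotide and lower at each step in the 3′ direction, whereas NAIN3 peaked at the middle one.

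A set of 21 nucleotides was in the top 10% of every reagent (4.90% of the domain I core, 3.06 to 7.39%, background 4.03%). They were nt 11, 16, 42, 43, 45, 48, 121, 134, 226, 280, 295, 315, 317, 318, 321, 349, 356, 395, 397 and 431 and the penultimate nucleotide of the core, 3 nt after nt 431. Their scores ranged from 0.311 to 1.0 with AcIm (median 0.4815), from 0.3875 to 1.0 with AcIN3 (0.517) and from 0.2465 to 1.0 with NAIN3 (0.354). Nt 42 to 48 and nt 315 to 321 each held 4 of them. Nt 121 was the most reactive, at 1.0 throughout. Its 5′ neighbour nt 120 scored 0.977 with AcIm and 1.0 with AcIN3 but 0.205 with NAIN3, and its 3′ neighbour nt 122 scored 0.031, 0.035 and 0.0085.

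Nt 315 to 321 held top nucleotides of all reagents, and nt 333 to 337 held those of AcIm and AcIN3 only. Nt 317 scored 0.606 with AcIm, 0.6165 with AcIN3 and 0.444 with NAIN3. Nt 318 scored 0.396, 0.533 and 0.6185, and nt 315 scored 0.3645, 0.517 and 0.323. Between them nt 316 scored lower, with 0.071, 0.1385 and 0.0585, though its ranks within 28S were 52.6, 61.4 and 64.5. Further 3′, nt 333 to 335 and nt 337 were in the top 10% of AcIm and AcIN3 and not of NAIN3. At these 4 positions AcIm scored 0.4765, 0.432, 0.3275 and 0.443, AcIN3 0.69, 0.5785, 0.4995 and 0.672, and NAIN3 0.1165, 0.1055, 0.1005 and 0.197. Nt 336 between them scored lower with each reagent (0.061, 0.1095 and 0.0595), at ranks 47.7, 53.3 and 64.8.

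In all, 77 of the 429 nucleotides (17.9%) were in the top 10% of at least 1 reagent, against 16.7% elsewhere in 28S. The top lists of AcIm and AcIN3 shared 40 nucleotides (83.3% of the AcIm list and 85.1% of the AcIN3 list, or 9.32% of the core against a background of 7.45%). AcIm and NAIN3 shared 24 (50% and 51.1% of their lists, 5.59% against 5.11%), and AcIN3 and NAIN3 shared 22 (46.8% of each list, 5.13% against 4.61%). Elsewhere in 28S the shares of the lists were 73.6% and 73.5% for AcIm and AcIN3, 51.2% and 51.1% for AcIm and NAIN3, and 46.1% of each for AcIN3 and NAIN3. The overlap of AcIm with AcIN3 was thus higher in the core, a difference that was not tested. Another 22 nucleotides were in the top 10% of NAIN3 alone (5.13%, against 4.23% elsewhere), 19 in that of AcIm and AcIN3 without NAIN3 (4.43% against 3.32%), 5 in that of AcIm alone (1.17% against 1.498%) and 6 in that of AcIN3 alone (1.40% against 2.02%). A further 3 were shared by AcIm and NAIN3 without AcIN3 (0.699% against 1.11%), and 1 by AcIN3 and NAIN3 without AcIm (0.233% against 0.608%). DMSO is the only control of all reagents, so the profiles may share its background, and the part of this in the overlaps was not tested.

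Across the 429 nucleotides Spearman's rho was 0.90 between AcIm and AcIN3, 0.69 between AcIm and NAIN3 and 0.68 between AcIN3 and NAIN3. Over the rest of 28S these were 0.88, 0.62 and 0.55, in ES7L 0.87, 0.61 and 0.52, and in the domain II core 0.94, 0.61 and 0.57. By Pearson's r, which weighs the few high scores most, AcIm and NAIN3 stood at 0.61 in the domain I core, 0.69 in ES7L and 0.69 in the domain II core. The domain I core thus ranked first among these parts by rho and last by r for this pair. The points of each correlation share libraries, sequence and possibly the DMSO control.

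**Figure D3:**
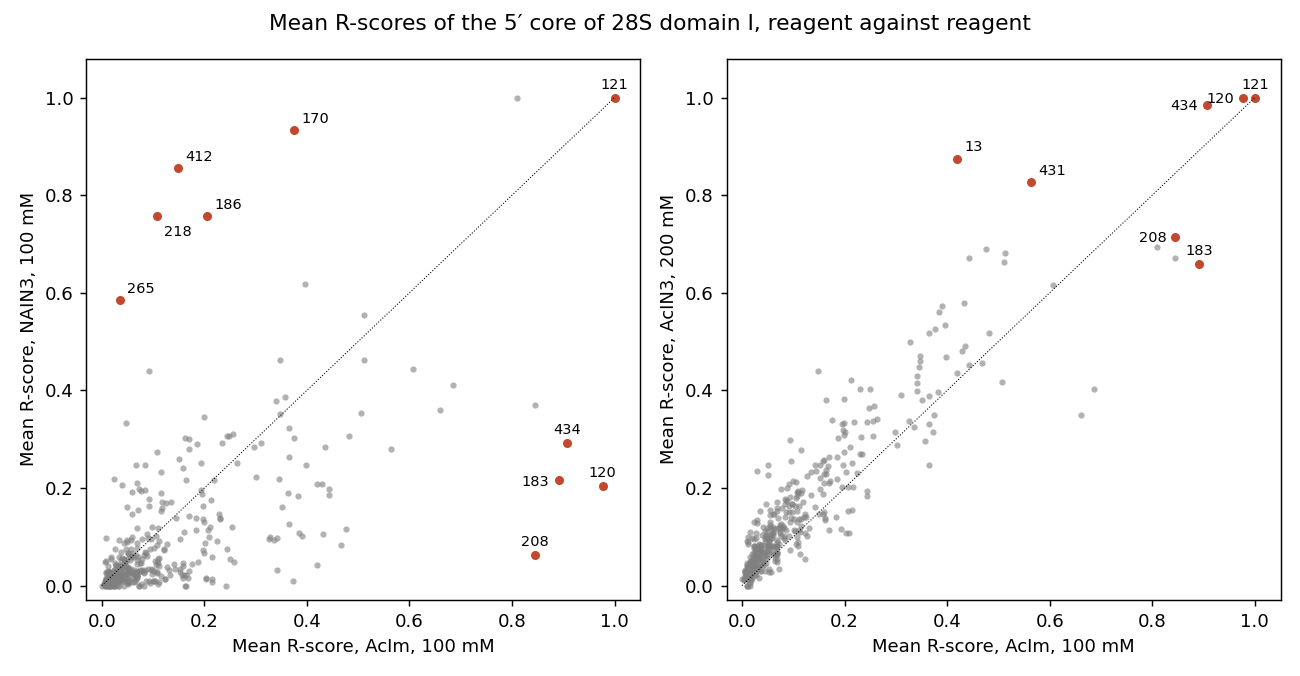
Mean R-score (0 to 1) of each of the 429 nucleotides with AcIm against NAIN3 (left) and against AcIN3 (right), with the line of equal scores dotted. Labels on the left mark nt 121 and the 9 nucleotides at which the replicates of AcIm and NAIN3 cannot overlap, if scores are plain means. Labels on the right mark the highest nucleotides of AcIm and AcIN3.

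AcIm and NAIN3, used at the same dose and time, seldom had a top nucleotide of one below rank 50 in the other. Among AcIm's 48 top nucleotides 2 fell below rank 50 with NAIN3 (0.466% of the core, 0.0565 to 1.67%, background 0.735%). One was nt 157, where AcIm scored 0.3725, AcIN3 0.314 and NAIN3 0.0095. The other was nt 323, where they scored 0.342, 0.4285 and 0.0315. Conversely, 2 of NAIN3's top nucleotides fell below rank 50 with AcIm (background 0.556%). At nt 265 NAIN3 scored 0.5855, AcIm 0.0355 and AcIN3 0.0435. In the same order, they scored at nt 219 0.3335, 0.047 and 0.1665.

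The pairs with AcIN3, which was used at another dose, gave similar counts. For AcIN3 high and NAIN3 low there were 2, nt 215 and nt 323 (background 1.01%), and for the reverse 2, nt 265 and nt 371 (background 0.795%). Nt 215 had the widest rank gap of all pairs, with 0.381 for AcIN3, 0.1645 for AcIm and 0 for NAIN3. No nucleotide was opposed between AcIm and AcIN3 in either direction (backgrounds 0.0596% and 0%), and 0 of 429 allows a share of up to 0.699% in each by a limit of 3 counts, or 0.856% by the exact interval.

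If each score is a plain mean of 2 replicates that lie between 0 and 1, it also limits each replicate. Some nucleotides must then separate in both replicates, although no replicate value was seen. By this bound, each AcIm replicate exceeded each NAIN3 replicate at 4 nucleotides (0.932%, background 1.09%), which were nt 120, nt 183, nt 208 and the penultimate one. At nt 208 the mean of 0.845 places each AcIm replicate between 0.69 and 1, and the mean of 0.062 places each NAIN3 replicate at 0.124 or below. At nt 183 the AcIm replicates lay at 0.782 or above and those of NAIN3 at 0.432 or below. NAIN3 exceeded AcIm in this way at 5 nucleotides (1.17%, background 0.854%), nt 170, nt 186, nt 218, nt 265 and nt 412. At nt 265 each NAIN3 replicate lay at 0.171 or above and each AcIm replicate at 0.071 or below. At nt 170 the limits were 0.867 for NAIN3 and 0.75 for AcIm, and at nt 412 they were 0.711 and 0.297. Only means above 0.5 can meet this bound, and 14 nucleotides had such a mean with AcIm and 9 with NAIN3.

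The same bound separated AcIN3 from NAIN3 at 6 nucleotides (1.40%, background 1.47%), nt 13, nt 120, nt 208, nt 333, nt 431 and the penultimate one. NAIN3 exceeded AcIN3 at 4, nt 170, nt 186, nt 218 and nt 265 (background 0.854%). Nt 412 is missing from that list, since AcIN3 scored 0.4395 there against 0.1485 for AcIm. Between AcIm and AcIN3 no nucleotide passed the bound in either direction (backgrounds 0.0397% and 0.119%). The widest rank gaps between them among top nucleotides were at nt 412, by 17.9 points in favour of AcIN3, and at nt 146, by 11.5 points in favour of AcIm (0.364 against 0.248).

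Rank differences between AcIm and NAIN3 were also averaged over neighbouring nucleotides to find short segments. Neighbouring means share values, so the averaging itself favours runs beyond a limit. Segments were not sought outside the core, so whether they are more common here was not tested. With 5-nt means, AcIm led NAIN3 by at least 20 rank points over 5 or more consecutive nucleotides at nt 195 to 205 and nt 270 to 274, limits that were chosen after the values were seen. From nt 195 to 205 the median score was 0.134 with AcIm, 0.155 with AcIN3 and 0.014 with NAIN3. The last was listed at 0 at nt 195, nt 200 and nt 201. AcIm reached 0.3355 at nt 199 and 0.42 at nt 203, where NAIN3 had 0.0935 and 0.0415. From nt 270 to 274 the medians were 0.109, 0.0925 and 0.0065. Nt 208, at which the replicate bound separates AcIm from NAIN3, lies 3 nt beyond the first of these segments.

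NAIN3 led AcIm by the same limits in 5 segments. The most 5′ of them, nt 90 to 95, lies in the window in which AcIm was lowest. NAIN3 scored 0.2795 at nt 93 and AcIm 0.1695, and at nt 94 they scored 0.097 and 0.009. The next were nt 186 to 191 and nt 263 to 267, each of which was followed within a few nucleotides by a segment in which AcIm led. From nt 369 to 373, nt 370 and nt 371 stood out, with 0.4405 and 0.247 for NAIN3 and 0.093 and 0.0665 for AcIm. From nt 409 to 415 the medians were 0.096 with NAIN3, 0.0805 with AcIN3 and 0.039 with AcIm. This segment holds nt 412 and nt 413, at which NAIN3 scored 0.8555 and 0.2185 and AcIm 0.1485 and 0.024. With 7-nt means the same limits gave 1 segment in which AcIm led, nt 196 to 206, and 2 in which NAIN3 led, nt 106 to 111 and nt 410 to 415.

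**Figure D4:**
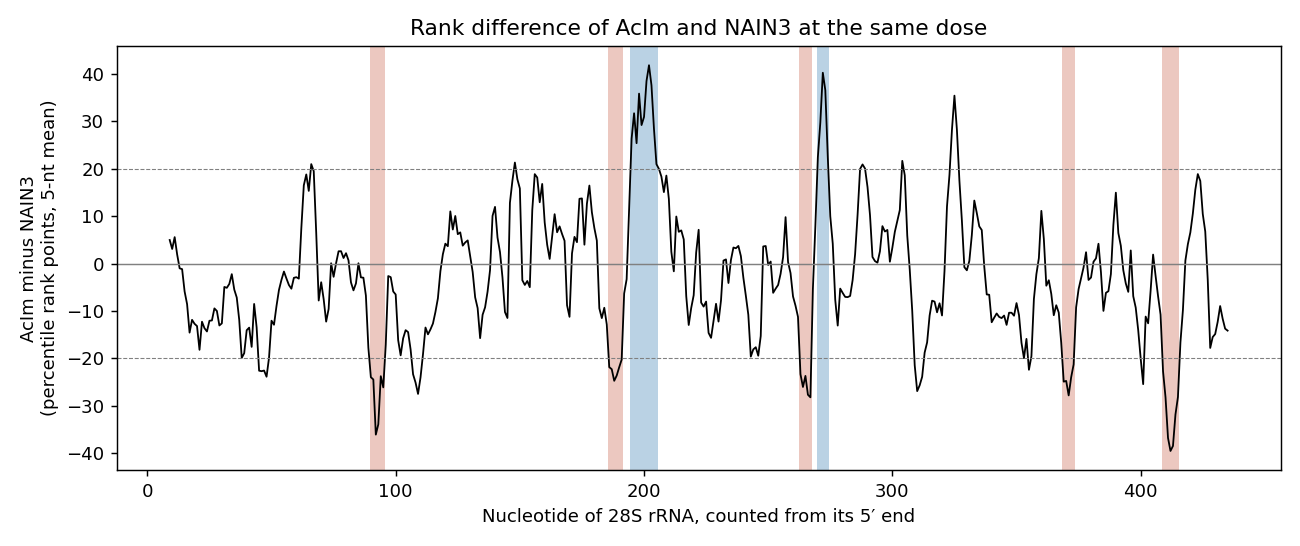
Percentile rank with AcIm minus that with NAIN3, averaged over 5 nt, by position from the 5′ end of 28S, with limits of 20 points in either direction dashed. Blue bands mark the 2 segments in which AcIm led (nt 195 to 205 and nt 270 to 274) and red bands the 5 in which NAIN3 led.

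Top nucleotides of NAIN3 lay directly 3′ of a top nucleotide of AcIm in 8 of 47 cases (17.0%), against 24.1% of 456 elsewhere in 28S. Of all scored nucleotides 11.2% did so in the core and 9.88% elsewhere. Of the 23 NAIN3 top nucleotides that were not in AcIm's top 10% themselves, 3 followed an AcIm top nucleotide (13.04%, against 26.5% of 223 elsewhere) and 5 preceded one (21.7% against 22.4%). Nt 265 is an example of the first kind. It follows nt 264, which scored 0.6605 with AcIm, 0.35 with AcIN3 and 0.359 with NAIN3. The counts are small, and their difference from the rest of 28S was not tested.

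Domain I of human 28S is known to carry 2′-O-methylated adenosines listed as Am398 and Am400, which lack the free 2′-hydroxyl. At the position of Am400, scores were low in each profile, with 0.031 for AcIm (rank 27.2), 0.0605 for AcIN3 (33.01) and 0.019 for NAIN3 (36.3). Am398 was intermediate, with 0.143 (73.8), 0.1605 (67.1) and 0.0335 (50.6). It follows nt 397, which is in the top 10% of all reagents (0.347, 0.471 and 0.463). Nt 399 between them scored 0.206 with NAIN3 and 0.039 with AcIm. On the 3′ side of Am400, nt 401 scored 0.052, 0.095 and 0.0665, and nt 402 scored 0.0125, 0.0385 and 0.0255. Nt 402, not in this list, was thus below Am400 with AcIm and AcIN3, so low scores were not particular to the listed site. An older numbering puts both listed sites 9 nt further 5′. In that numbering the first would have scores of 0.0485, 0.117 and 0.016, and the other 0.059, 0.082 and 0.017. The positions come from general knowledge and were not checked against a sequence.

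Near the 3′ border, high nucleotides inside the range stood among lower ones. Nt 431, nt 433 and the penultimate nucleotide scored 0.564, 0.346 and 0.9065 with AcIm, 0.8265, 0.4475 and 0.9855 with AcIN3, and 0.2805, 0.2175 and 0.293 with NAIN3. Nt 432 among them scored 0.093, 0.1825 and 0.178, and the last nucleotide of the core scored 0.0125, 0.0185 and 0.041. Beyond it, the first nucleotide of ES7L scored 0.022, 0.0275 and 0.0095, and the next scored 0.022, 0.0545 and 0.027. At the 5′ border, nt 7 was the first scored nucleotide (0.385, 0.5605 and 0.108), and the 6 nt before it have no score.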

How the data were processed

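Of 14 samples in 7 groups, values of 3 ribosomal RNA groups were used. The authors deposited 1 mean R-score per nucleotide and reagent, a score from 0 to 1, used here unchanged. The submitters' processing notes name Bowtie2 and GRCh38, with no version. How the score was computed, its use of DMSO, its filters and its reference are not given in the sources, so depth and precision are unknown. The scores fell on steps of 0.0005. In the domain I core (nt 7 to 435), 46.9% (AcIm), 51.7% (AcIN3) and 42.9% (NAIN3) lay on odd steps, which a mean of 2 values with 3 decimals gives only where the replicates differ. ES7L was nt 436 to 1311 and the domain II core nt 1312 to 2050.

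Percentile ranks (ties averaged) and the top 10% (ties by position) were taken over all 5034 scored 28S nucleotides. An opposed nucleotide was a top one of 1 reagent with a rank below 50 in another. For the replicate bound, a mean m places each of 2 replicates between 2m − 1 and 2m. Named nucleotides were the 5 highest per reagent, the 5 widest rank leads per pair, members of the lists and stretches described, and neighbours that these are set against. Members and lists were chosen with earlier results of these data known. The procedures were tested on simulated data. Alternatives moved the limits, borders and profiles. Bases and helices were not used here. The tools were matplotlib 3.10.9, scipy 1.17.1, pandas 2.3.3 and numpy 2.4.6 under Python 3.11.15.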

Additional observations from a re-analysis of the deposited data

How the results depend on the processing

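Of 126 alternative values, 78 stayed within the limits set (1.5 times a count, 0.1 of a correlation, the 95% interval of a median or share) and 48 lay beyond them. A change of sign occurred in 0 of the 126, and only correlations could show one, since counts, medians and shares are never negative. Removing the first or last 50 nt, or Pearson's r, moved no value beyond its limit. The size of the counts moves with the top class by construction. With the top 5%, the core held 15 (AcIm), 18 (AcIN3) and 14 (NAIN3) top nucleotides, and AcIm and NAIN3 shared 6, AcIN3 and NAIN3 6, and AcIm and AcIN3 11. With the top 20% these were 88, 88 and 91, and 56, 55 and 75. The top 5% class thus held less than 5% of the core with each reagent. The top 20% class held slightly more than 20%, and the main top class was also slightly above its background. The direction against the background therefore changed with the class, which was not tested. For the shared and opposed counts of the alternatives, no counts outside the core were computed. The opposed counts rest on few nucleotides. In the order AcIm over NAIN3, NAIN3 over AcIm, AcIN3 over NAIN3 and NAIN3 over AcIN3 they were 0, 1, 0 and 1 with the top 5%, 7, 7, 5 and 6 with the top 20%, and 1, 0, 1 and 1 with a low class below rank 25. With 5-nt means they were 4, 6, 3 and 4, and AcIN3 over NAIN3 was 1 with ranks within the core alone. With the top 20%, 1 nucleotide was opposed for AcIN3 over AcIm. Moving the second profile by 1 nt gave 11, 20, 13 and 21 in one direction and 16, 15, 15 and 14 in the other, with 14 and 16 for AcIm over AcIN3 and 19 and 16 for the reverse. The rank correlation across nucleotides was then 0.22 and 0.21 (AcIm, NAIN3), 0.22 and 0.17 (AcIN3, NAIN3) and 0.13 and 0.15 (AcIm, AcIN3). The closed stretch at nt 245 to 250 had 0 nucleotides with 7-nt means. The cause of these shifts was not tested. No paired analysis was possible because the deposited columns hold means over the replicates, and for the same reason no replicate could be left out.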
